A study of Mus musculus with 45 samples.

Results

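The genes described here are 43 genes of collagens and other components of the extracellular matrix, the protein scaffold around cells, in islets of Langerhans of the mouse pancreas. They form a gene module chosen by symbol, and are the rows of the deposited matrices that carry these symbols. All 43 are among the 22904 genes of the matrix, all passed the filter on low counts that left 20306 genes for testing, and no member had a count of 0 in any of the 45 libraries. By role they are 6 fibrillar collagens, 7 network, beaded and fibril-associated collagens, 8 basement membrane proteins, 10 glycoproteins and matricellular proteins, 4 proteoglycans, 3 crosslinking enzymes, and 5 proteases and protease inhibitors.

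Polyadenylated RNA of islets was sequenced from mice of 3 inbred strains, NZO/HlLtJ, which becomes obese and is prone to diabetes, the wild-derived CAST/EiJ, and the common laboratory strain C57BL/6J. All mice are labelled wild type and carried no treatment other than diet. From 6 weeks of age they ate a diet with 44% fat that was also rich in sugar, or a control diet with 10% fat, and islets were taken at 16 weeks. Both diets are labelled as containing fiber. The 12 groups are NZO/HlLtJ males on 44% fat (3 libraries) and on 10% fat (3), NZO/HlLtJ females on 44% fat (4) and on 10% fat (4), CAST/EiJ males on 44% fat (4) and on 10% fat (3), CAST/EiJ females on 44% fat (4) and on 10% fat (4), and C57BL/6J males on 44% fat (4) and on 10% fat (4) and females on 44% fat (4) and on 10% fat (4). The islets were isolated tissue and not sorted cells, so each value sums over endocrine, vascular, stromal, immune and any exocrine cells in the preparation.

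Fibrillar collagens are secreted as procollagens, trimmed by proteases, assembled into fibrils and crosslinked by lysyl oxidases. Basement membranes are thinner sheets of type IV collagen, laminins and nidogen. In the mouse islet the vascular basement membrane is made mainly by endothelial cells, and the interstitial matrix by fibroblasts, stellate cells and pericytes, which also make the metalloproteases and inhibitors that remodel it.

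Promoter windows of 250 bases before to 50 bases after the annotated start were available from RefSeq (build GRCm38.p6) for 28 of the 43 genes. A window is printed for 4 genes that carry the results below, a pair of fibrillar collagens, a basement membrane collagen and the protease inhibitor with the widest range among the inhibitors. Capitals mark matches on either strand to 5 motifs. They are TATAAA of the TATA box, CCAAT of the CCAAT box, TGANTCA as bound by AP-1 factors, GGGCGG of the GC box, and CAGACA, the core of a SMAD binding element.
Col1a2 (chr6:4505368-4505667, + strand): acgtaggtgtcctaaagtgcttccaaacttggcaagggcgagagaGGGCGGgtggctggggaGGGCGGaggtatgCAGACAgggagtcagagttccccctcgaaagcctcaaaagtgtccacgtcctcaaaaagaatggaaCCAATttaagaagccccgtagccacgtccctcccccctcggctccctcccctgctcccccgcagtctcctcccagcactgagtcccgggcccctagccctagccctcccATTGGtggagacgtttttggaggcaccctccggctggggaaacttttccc
Col3a1 (chr1:45311288-45311587, + strand): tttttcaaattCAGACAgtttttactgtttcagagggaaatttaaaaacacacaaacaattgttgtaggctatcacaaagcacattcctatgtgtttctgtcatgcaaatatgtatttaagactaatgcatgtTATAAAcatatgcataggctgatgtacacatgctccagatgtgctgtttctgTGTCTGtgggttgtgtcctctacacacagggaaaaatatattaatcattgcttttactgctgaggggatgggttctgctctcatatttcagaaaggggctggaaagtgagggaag
Col4a1 (chr8:11312777-11313076, - strand): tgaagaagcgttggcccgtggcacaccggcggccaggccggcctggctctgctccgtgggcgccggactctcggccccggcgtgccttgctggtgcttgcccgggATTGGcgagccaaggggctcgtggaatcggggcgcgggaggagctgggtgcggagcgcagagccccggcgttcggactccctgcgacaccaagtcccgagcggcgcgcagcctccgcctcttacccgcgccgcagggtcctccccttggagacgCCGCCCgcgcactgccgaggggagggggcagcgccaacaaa
Timp1 (chrX:20869916-20870215, + strand): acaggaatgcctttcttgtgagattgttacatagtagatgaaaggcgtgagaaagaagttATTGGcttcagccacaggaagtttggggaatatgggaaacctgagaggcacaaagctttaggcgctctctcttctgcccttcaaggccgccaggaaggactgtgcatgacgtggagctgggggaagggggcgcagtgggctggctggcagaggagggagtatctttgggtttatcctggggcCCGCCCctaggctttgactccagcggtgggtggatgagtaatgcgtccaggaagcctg
The Col1a2 window holds 5 matches, with GGGCGG at positions -205 and -188 from the start, CAGACA at -175 and CCAAT at -109 and, on the other strand, at 1. Col3a1 has TATAAA at -117 and CAGACA at -239 and, on the other strand, at -65. The Col4a1 and Timp1 windows each hold 1 CCAAT and 1 GGGCGG match on the other strand. Over the 28 windows GGGCGG was present in 20 (71.4%, against 35.9% of all 27025 promoter windows), CCAAT in 14 (50%, against 37.9%), CAGACA in 8 (28.6%, against 21.0%), TATAAA in 3 (10.7%, against 14.2%) and TGANTCA in 1 (3.6%, against 7.93%). These are matches of letters, and binding was not measured. Col4a1 and Col4a2 lie head to head on opposite strands, and their windows overlap by 78 bases. The RefSeq start of Col1a2 lies inside the deposited span of that gene, which begins upstream of it.

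Library totals ranged from 57.2 to 110 M estimated counts, with a median of 84.4 M, and a member had a median of 2017 counts in a library. The lowest count of a member was 4, reached by Timp1 and by Tnc in 1 library each. Levels are CPM, counts scaled to a common library size, with edgeR's TMM composition factors, which ranged from 0.486 to 1.18. Genes of exocrine acinar cells took 0.0579% to 33.7% of the counts of a library. In 5 libraries, genes read almost exclusively in another strain reached a median above 1% of their level in that strain (at least 1.88%, against at most 0.571% in the other 40). These are NZO/HlLtJ male 44% fat replicate 3, CAST/EiJ female 44% fat replicates 1, 2 and 4, and C57BL/6J female 44% fat replicate 2. NZO/HlLtJ male 44% fat replicate 3 was also the highest of its 3 libraries in 42 of the 43 members. Diet counts of the 43 genes and the largest diet effects in NZO/HlLtJ males are therefore given with and without it. Group means include it. Among the NZO/HlLtJ males on 10% fat, replicate 3 was the highest in 38 members and replicate 1 the lowest in 32. The sample codes fall into series of numbers of unstated meaning. In NZO/HlLtJ, males of series 80 ate 44% fat and its females 10% fat, while males of series 89 ate 10% fat and its females 44% fat, so that diet and series are partly confounded within each sex. Opposite-strand genes overlap 3.42% of the exon bases of Thbs1, 2.5% of Fn1, 2.26% of Tnc and 2.06% of Nid1, and more of Fbn1, Timp3 and Loxl2 as given below, and the sources used here do not say whether counting used strand.

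Per kb of exon, a scale on which levels can be compared between genes, the basement membrane collagen Col4a1 and the calcium-binding matricellular protein Sparc had the highest levels in each of the 12 groups, with Col4a1 first in 10. In NZO/HlLtJ males on 44% fat the mean level was 109 ± 32.3 CPM per kb for Sparc (SD, n = 3), 98.9 ± 24.3 for Col4a1, 87.8 ± 34.8 for the fibrillar collagen Col3a1, 85.3 ± 21.2 for Mgp, an inhibitor of calcification, and 74.9 ± 37.8 for Col1a1. In NZO/HlLtJ males on 10% fat the levels per kb were 55.3 ± 19.4 for Sparc, 74.3 ± 21.9 for Col4a1, 28 ± 20.2 for Col3a1, 35.3 ± 21.4 for Mgp and 20.2 ± 18.5 for Col1a1 (n = 3). In C57BL/6J males on 10% fat, Col4a1 had 31.5 CPM per kb, Sparc 23.3 and Col4a2 19.7. The lowest members per kb in NZO/HlLtJ males on 44% fat were Col12a1 with 0.823, the large proteoglycan Vcan with 0.923 and the glycoprotein Tnc with 1.04 CPM per kb. The mean CPM of NZO/HlLtJ males on 44% fat was the highest of the 12 groups for 41 members. The exceptions were Loxl2, highest in NZO/HlLtJ females on 44% fat, and Thbs1, highest in NZO/HlLtJ males on 10% fat. The lowest group mean was that of C57BL/6J males on 10% fat for 26 members. The highest group mean was 43.6 times the lowest for Tnc, 29.4 times for Fn1, 26.4 times for Lox, 24.7 times for Timp1 and 19.9 times for Postn, and 2.4 times for Timp3. These highest means include male 44% fat replicate 3. The lowest mean of Tnc was only 0.185 CPM, in CAST/EiJ females on 10% fat.

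**Figure D1:**
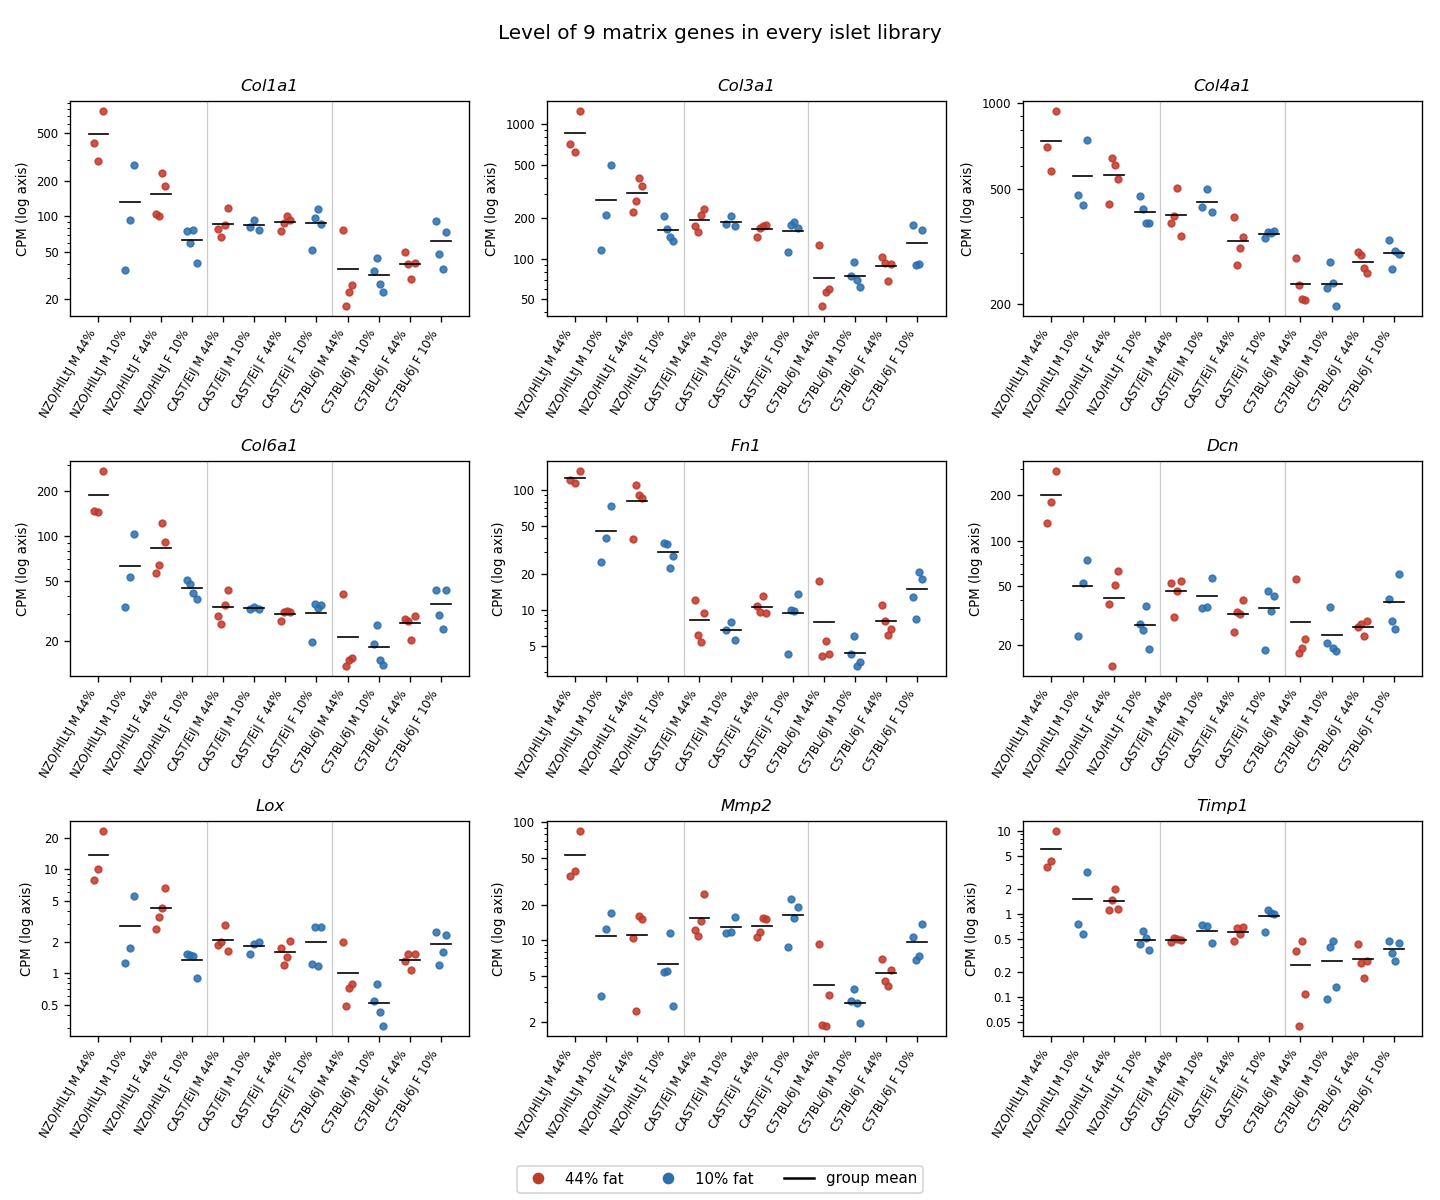
CPM on a log axis of 9 matrix genes in every library (points), with the mean of each of the 12 groups (line), by strain, sex (M, F) and diet (44% fat red, 10% fat blue). For Col1a1, the 3 NZO/HlLtJ male libraries on 44% fat sit between 293 and 770 CPM, above every other library.

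The first comparison asks how the 44% fat diet changed the matrix genes of NZO/HlLtJ islets. As a mean over the sexes (7 libraries on 44% fat against 7 on 10% fat), 39 of the 43 genes rose on 44% fat and 0 fell by edgeR's quasi-likelihood test (adjusted p under 0.05 over all genes tested). Of all 20306 genes, 35.8% passed in either direction and 18.5% rose. The median log2 fold change was 1.24 for the 43 genes, against -0.019 for all genes tested. The genes that did not pass were Lama4 (0.29, SE 0.12, adjusted p = 0.0542), Thbs1 (0.16, SE 0.16, adjusted p = 0.472), Loxl2 (0.05, SE 0.11, adjusted p = 0.781) and Timp3 (0.08, SE 0.11, adjusted p = 0.647). The 43 genes took 0.639%, 0.491% and 0.937% of the counts in males on 44% fat, against 0.26%, 0.289% and 0.454% in males on 10% fat. In females they took 0.285%, 0.308%, 0.408% and 0.346% on 44% fat, against 0.299%, 0.247%, 0.272% and 0.231% on 10% fat. Every male library on 44% fat was above every male library on 10% fat, and the female groups overlapped. In bulk RNA, a change in the number of matrix-producing cells and a change in RNA per cell cannot be told apart. Without NZO/HlLtJ male 44% fat replicate 3, 36 genes rose and the median log2 fold change was 1.06, and without all 5 libraries with transcripts of another strain 33 rose, with a median of 1.04.

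All 6 fibrillar collagens rose in NZO/HlLtJ on 44% fat, with a median log2 fold change of 1.40. Col1a1 (ENSMUSG00000001506, chr11:94936224-94953042 in GRCm38), which encodes the main chain of type I collagen, had 412, 293 and 769.6 CPM in males on 44% fat, against 35.3, 93.9 and 268 in males on 10% fat. In females it had 104, 102, 231 and 178 CPM on 44% fat, against 75.8, 60.01, 76.7 and 40.8 on 10% fat. The diets did not overlap in either sex, although the male 10% fat replicates spread from 35.3 to 268 CPM. Its log2 fold change was 1.59 (SE 0.33, adjusted p = 0.000335) over both sexes, 1.89 (SE 0.51, adjusted p = 0.00446) in males and 1.28 (SE 0.43, adjusted p = 0.0368) in females, and the male call was lost without NZO/HlLtJ male 44% fat replicate 3, at 1.41 (adjusted p = 0.0654). Without NZO/HlLtJ male 10% fat replicate 3 the male value was 2.93 (adjusted p = 0.000116). The female call was lost without any single female on 10% fat or without female 44% fat replicate 3 or 4, for example at 1.02 (adjusted p = 0.142) without female 44% fat replicate 3. Col1a2 (ENSMUSG00000029661, chr6:4504814-4541544), the partner chain of type I collagen whose window is printed above, had 435, 368 and 875 CPM in males on 44% fat, against 54.3, 124 and 284 in males on 10% fat. Female libraries held 126, 109, 244 and 188 CPM of Col1a2 on 44% fat, against 87.8, 81.2, 104 and 56.8 on 10% fat. The lowest library on 44% fat again lay above the highest on 10% fat in each sex, narrowly so in females, and the log2 fold change was 1.44 (SE 0.29, adjusted p = 0.000189) over both sexes. Col5a1 (chr2:27886425-28039514), a chain of type V collagen, which starts fibrils, had 59.3, 52.5 and 119 CPM in males on 44% fat, against 8.102, 17.8 and 41.4 on 10% fat, and 19.9, 19.7, 39.9 and 32.4 CPM in females on 44% fat, against 14.6, 11.3, 13.6 and 9.99 on 10% fat. It rose in the mean over both sexes by 1.48 (SE 0.27, adjusted p = 6.24e-05) on the log2 scale. Col3a1 of type III collagen (1.28, SE 0.24, adjusted p = 7.4e-05), Col5a2 (1.35, SE 0.21, adjusted p = 5.73e-06) and Col5a3 (0.84, SE 0.22, adjusted p = 0.00254) completed the set.

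The 7 network, beaded and fibril-associated collagens all rose as well, with a median log2 fold change of 1.24. Col16a1 (chr4:130047840-130099283), a fibril-associated collagen, had 43.7, 39.5 and 80.8 CPM in males on 44% fat, against 7.23, 12.4 and 26.2 on 10% fat. Its female libraries had 13.6, 11.4, 29.6 and 19.8 CPM on 44% fat, against 10.3, 8.79, 12.2 and 7.59 on 10% fat, and overlapped between the diets at the lowest 44% fat and highest 10% fat library. The log2 fold change of Col16a1 was 1.39 (SE 0.22, adjusted p = 9.64e-06). Type VI collagen forms beaded filaments near basement membranes. Its chain Col6a3 (chr1:90765923-90843971) had 97.7, 69.5 and 148 CPM in males on 44% fat, against 22.5, 26.2 and 50.6 on 10% fat, and 39.3, 46.5, 58.1 and 51.6 CPM in females on 44% fat, against 30.9, 24.9, 18.5 and 25.4 on 10% fat. The diets were separate in both sexes, and the log2 fold change was 1.32 (SE 0.18, adjusted p = 1.46e-06). The other type VI chains rose by similar amounts, Col6a2 by 1.27 (SE 0.24, adjusted p = 9.79e-05) and Col6a1 by 1.24 (SE 0.24, adjusted p = 0.000112). The fibril-associated Col12a1 gave 1.20 (SE 0.22, adjusted p = 6.43e-05) and Col14a1 0.88 (SE 0.21, adjusted p = 0.00137), and the network collagen Col8a1 gave 0.81 (SE 0.18, adjusted p = 0.00054).

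Among the 8 basement membrane proteins 7 rose, with a median log2 fold change of 0.41. Col18a1 (chr10:77052178-77166548), which encodes the precursor of the angiogenesis inhibitor endostatin, had the largest value of the role. It had 103, 73.96 and 125 CPM in males on 44% fat, against 21.7, 31.5 and 59.1 on 10% fat, and 27.6, 44.2, 61.1 and 49.2 CPM in females on 44% fat, against 18.04, 19.04, 17.9 and 16.5 on 10% fat. Both sexes were fully separated by diet, and the log2 fold change was 1.39 (SE 0.20, adjusted p = 3.1e-06). Col15a1 (chr4:47208161-47313167), which links basement membranes to the fibrils beside them, had 141, 115 and 229 CPM in males on 44% fat, against 61.1, 75.6 and 105 on 10% fat. In females it had 75.5, 87.7, 102 and 101 CPM on 44% fat, against 91.6, 81.9, 64.6 and 70.2 on 10% fat, with overlap, and the log2 fold change over both sexes was 0.63 (SE 0.13, adjusted p = 0.000253). Nid1, which joins the laminin and collagen networks, rose by 0.56 (SE 0.11, adjusted p = 8.28e-05). The type IV collagen chains that make up the core of vascular basement membranes also rose, with smaller values. Col4a1 (chr8:11198423-11312826) had 702, 578 and 935 CPM in males on 44% fat, against 479, 441 and 742 on 10% fat, and 444, 644, 609 and 545 CPM in females on 44% fat, against 474, 426, 382 and 381 on 10% fat. These libraries overlapped in both sexes, and the log2 fold change was 0.42 (SE 0.11, adjusted p = 0.00359), with 0.41 (SE 0.12, adjusted p = 0.00513) for Col4a2. The laminin chains Lamb1 and Lamc1 gave 0.39 (SE 0.10, adjusted p = 0.0026) and 0.30 (SE 0.09, adjusted p = 0.00696). Scaling to library totals alone ended the calls of Col4a1, Col4a2, Lamb1 and Lamc1.

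Of the 10 glycoproteins and matricellular proteins 9 rose, with a median log2 fold change of 1.22. Fn1 (chr1:71585520-71653200), which encodes fibronectin, an adhesive ligand of integrins, had 120.4, 115 and 144 CPM in males on 44% fat, against 24.8, 39.4 and 72.9 on 10% fat. Females had 38.5, 109.8, 90.3 and 86.4 CPM of Fn1 on 44% fat, against 35.7, 35.4, 22.1 and 27.8 on 10% fat. No library on 44% fat fell into the 10% fat range of its sex, and the log2 fold change was 1.45 (SE 0.30, adjusted p = 0.000267). In males alone it was 1.47 (SE 0.45, adjusted p = 0.0117), and that call was lost without NZO/HlLtJ male 44% fat replicate 3, at 1.36 (adjusted p = 0.0552), without male 10% fat replicate 1, at 1.15 (adjusted p = 0.0949), and without male 10% fat replicate 2, at 1.35 (adjusted p = 0.061). Fbln1 (chr15:85205949-85286535), a fibulin of elastic fibers and basement membranes, had 30.8, 30.02 and 51.8 CPM in males on 44% fat, against 2.56, 8.84 and 15.2 on 10% fat. The female values of 6.53, 2.91, 10.7 and 10.6 CPM on 44% fat and 5.97, 4.97, 6.67 and 4.07 on 10% fat overlapped. Its log2 fold change was 1.29 (SE 0.35, adjusted p = 0.00373) over both sexes, with 2.08 (SE 0.54, adjusted p = 0.00323) in males. Fbln2 rose by 1.26 (SE 0.31, adjusted p = 0.00145), with a male value of 1.69 (SE 0.47, adjusted p = 0.00563) that lost its call without male 44% fat replicate 3 (1.26, adjusted p = 0.077) and without male 10% fat replicate 1 (1.27, adjusted p = 0.0619). Postn, a collagen-binding protein of activated fibroblasts, rose by 1.11 (SE 0.20, adjusted p = 4.83e-05), Mgp by 1.24 (SE 0.18, adjusted p = 3.45e-06) and Thbs2, an antiangiogenic thrombospondin, by 1.20 (SE 0.16, adjusted p = 8.13e-07). Sparc gave 0.74 (SE 0.13, adjusted p = 2.1e-05) and Fbn1, the main microfibril protein, 1.04 (SE 0.19, adjusted p = 4.62e-05), although a gene on the opposite strand overlaps 20.14% of the exon bases of Fbn1, whose value is therefore uncertain. Tnc, a tenascin of remodelled tissue, gave 1.23 (SE 0.43, adjusted p = 0.0235), and lost its call without male 10% fat replicate 1, male 10% fat replicate 2 or male 44% fat replicate 3, at 1.07 (adjusted p = 0.0858), 1.12 (adjusted p = 0.0724) and 1.11 (adjusted p = 0.0648).

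All 4 proteoglycans rose in the mean over the sexes, with a median log2 fold change of 1.33, at 1.88 in males and 0.64 in females. Lum (chr10:97565501-97572703), which encodes lumican, a regulator of fibril diameter, had 39.9, 44.05 and 78.6 CPM in males on 44% fat, against 5.89, 12.5 and 21.1 on 10% fat. In females Lum was at 13.5, 8.87, 19.8 and 21.1 CPM on 44% fat, against 11.4, 10.9, 9.698 and 7.704 on 10% fat. Only the male groups were separate, and the log2 fold change was 1.36 (SE 0.29, adjusted p = 0.000359) over both sexes. Dcn (chr10:97479500-97518162), which encodes decorin, a related collagen-binding proteoglycan, had 132, 180.1 and 292 CPM in males on 44% fat, against 23.2, 52.2 and 74.3 on 10% fat, and 37.8, 14.5, 50.6 and 63 CPM in females on 44% fat, against 27.7, 25.4, 36.6 and 18.9 on 10% fat. Female 44% fat replicate 2, at 14.5 CPM, was below every 10% fat female. The log2 fold change of Dcn was 1.31 (SE 0.30, adjusted p = 0.000741). Bgn (chrX:73483602-73495933), encoding biglycan, had 373, 345 and 613 CPM in males on 44% fat, against 62.4, 111 and 222 on 10% fat, and 99.6, 98.02, 183 and 160.3 CPM in females on 44% fat, against 74.2, 72.4, 79.7 and 52.7 on 10% fat. It was separate by diet in both sexes, with a log2 fold change of 1.35 (SE 0.23, adjusted p = 3.19e-05). Vcan, encoding the large proteoglycan versican, gave 0.66 (SE 0.19, adjusted p = 0.00635) over both sexes, and without male 44% fat replicate 3 the value was 0.39 (adjusted p = 0.102).

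Lox (chr18:52516069-52529867), the lysyl oxidase that crosslinks collagen and elastin, had the largest log2 fold change of the 43 genes in NZO/HlLtJ, 1.97 (SE 0.31, adjusted p = 6.4e-06). It had 7.904, 9.98 and 23.3 CPM in males on 44% fat, against 1.27, 1.73 and 5.54 on 10% fat, and 2.64, 3.47, 4.27 and 6.63 CPM in females on 44% fat, against 1.52, 1.504, 1.45 and 0.898 on 10% fat. The groups were separate in both sexes, and male 10% fat replicate 3 and male 44% fat replicate 3 each stood well above the others of their group. In males the log2 fold change of Lox was 2.27 (SE 0.46, adjusted p = 0.000327), with 1.65 (adjusted p = 0.0137) without male 44% fat replicate 3 and 3.19 (adjusted p = 1.21e-05) without male 10% fat replicate 3. Loxl1, a paralog that acts on elastic fibers, rose by 1.40 (SE 0.26, adjusted p = 7.94e-05). Loxl2 (chr14:69609068-69695834), a paralog known to crosslink type IV collagen, did not follow them. It had 50.5, 46.7 and 36.4 CPM in males on 44% fat, against 64.9, 53.9 and 59.7 on 10% fat, and 60.5, 92.3, 74.3 and 60.9 CPM in females on 44% fat, against 52.6, 48.6, 42.9 and 58.2 on 10% fat. Every male library on 44% fat lay below, and every female library on 44% fat above, the 10% fat libraries of its sex. The log2 fold change of Loxl2 was -0.42 (SE 0.16, adjusted p = 0.0473) in males and 0.51 (SE 0.14, adjusted p = 0.0109) in females. Its male call was lost without male 44% fat replicate 3, at -0.29 (adjusted p = 0.289), without male 44% fat replicate 2 or male 10% fat replicates 1 or 3, and also by RLE scaling, DESeq2 and limma. The female call was lost without female 44% fat replicate 2, at 0.37 (adjusted p = 0.0874), without female 10% fat replicate 3, at 0.44 (adjusted p = 0.0539), and with library totals alone, at 0.29 (adjusted p = 0.356). An antisense gene overlaps 5.57% of the exon bases of Loxl2.

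Among the proteases and inhibitors, 4 of 5 rose, with a median log2 fold change of 1.47. Mmp2 (chr8:92827328-92853417), a gelatinase that degrades denatured and type IV collagen, had 34.9, 38.4 and 84.6 CPM in males on 44% fat, against 3.35, 12.4 and 16.8 on 10% fat. The female libraries, with 10.3, 2.48, 15.9 and 15.2 CPM on 44% fat and 5.36, 5.48, 11.4 and 2.73 on 10% fat, overlapped widely. Mmp2 rose by 1.54 (SE 0.38, adjusted p = 0.00174) over both sexes. Mmp14 (chr14:54431612-54441265), the membrane protease that activates Mmp2, had 46.4, 43.1 and 92.3 CPM in males on 44% fat, against 8.23, 14.8 and 27.99 on 10% fat, and 16.6, 13.5, 19.9 and 18.1 CPM in females on 44% fat, against 8.21, 8.45, 8.94 and 5.96 on 10% fat. It was separate by diet in both sexes, at 1.47 (SE 0.23, adjusted p = 8.18e-06). Timp1 (chrX:20870166-20874735), a secreted metalloprotease inhibitor that is induced in injured tissue, had 3.68, 4.25 and 9.91 CPM in males on 44% fat, against 0.753, 0.563 and 3.19 on 10% fat, and 1.101, 1.46, 1.95 and 1.13 CPM in females on 44% fat, against 0.433, 0.622, 0.501 and 0.359 on 10% fat. Its levels were low but separate by diet in both sexes, and the log2 fold change was 1.77 (SE 0.33, adjusted p = 5.92e-05). Timp2, which also takes part in Mmp2 activation, rose by 0.73 (SE 0.15, adjusted p = 0.000233). Timp3, an inhibitor held in the matrix, was the member that did not pass, and 21.28% of its exon bases overlap a gene on the opposite strand.

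Set apart by sex, NZO/HlLtJ males on 44% fat had 36 genes higher and 1 lower (32.1% of all genes passed, 17.0% higher and 15.1% lower), with a median log2 fold change of 1.47, against -0.027 for all genes. In females 22 rose and 0 fell (17.2% of all genes passed, 9.37% higher and 7.83% lower), with a median of 0.81, against -0.005 for all genes. Every 44% fat library was above every 10% fat library for 33 of the 43 genes in males, against 20.0% of all genes, and for 23 in females, against 8.79% of all genes. Every 44% fat library was below for 1 gene in males, against 16.5% of all genes, and for 0 in females, against 9.53%. The largest log2 fold changes in males were 2.28 for Mmp2, 2.27 for Lox, 2.08 for Fbln1, 2.04 for Lum and 2.01 for Dcn. In females they were 1.66 for Lox, 1.57 for Tnc (adjusted p = 0.0532), 1.55 for Timp1, 1.42 for Fn1 and 1.35 for Col18a1. By role, the male calls covered 6 of 6 fibrillar, 7 of 7 network and related collagens, 5 of 8 basement membrane genes, 8 of 10 glycoproteins and 4 of 4 proteoglycans. The female calls covered 4 of 6, 5 of 7, 2 of 8, 6 of 10 and 1 of 4 of the same roles. Without male 44% fat replicate 3, 30 genes rose in males and 0 fell (15.7% of all genes passed, 8.97% higher and 6.74% lower), with a median of 1.21. The calls by role were then 4 of 6, 7 of 7, 3 of 8, 6 of 10 and 4 of 4 in the same order. The 44% fat libraries still lay above all 10% fat libraries for 33 genes (21.9% of all genes) and below for 1 (18.3%). The male values were then 1.75 (adjusted p = 0.0464) for Mmp2, 1.78 (adjusted p = 0.031) for Fbln1, 1.67 (adjusted p = 0.0131) for Lum and 1.64 (adjusted p = 0.0183) for Dcn, and 1.65 (adjusted p = 0.0137) for Lox. Without the 5 libraries with transcripts of another strain 22 rose. The female count was 11 without female 44% fat replicate 3, and 12, 13, 12 and 12 without female 10% fat replicate 2, female 10% fat replicate 3, female 10% fat replicate 4 and female 44% fat replicate 4. With number series added to the model as a factor it was 12.

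The test of whether the diet effect differed between NZO/HlLtJ males and females passed for 3 of the 43 genes, 2 higher and 1 lower (10.0% of all genes passed, 4.42% higher and 5.58% lower). The difference, male effect minus female effect, was above 0 for 38 genes, with a median of 0.60 on the log2 scale, but 40 of the 43 did not pass. Vcan (chr13:89655312-89742509) had 9.04, 9.25 and 21.8 CPM in males on 44% fat, against 3.46, 3.37 and 6.32 on 10% fat, and 5.56, 3.19, 4.102 and 4.69 CPM in females on 44% fat, against 4.63, 5.99, 6.99 and 3.83 on 10% fat. Its diet effect was 1.61 in males and -0.29 in females (adjusted p = 0.463 in females), and the difference was 1.90 (SE 0.38, adjusted p = 0.00248). Timp2 had 96.8, 108 and 147 CPM in males on 44% fat, against 30, 53 and 63.8 on 10% fat, and 42.7, 38.97, 60.2 and 58.98 CPM in females on 44% fat, against 41.8, 45.1, 48.05 and 39.1 on 10% fat. The male groups were separate and the female groups overlapped, with a difference of 1.05 (SE 0.30, adjusted p = 0.0223). The Timp2 call was lost without female 44% fat replicate 2, at 0.95 (adjusted p = 0.0596), without male 10% fat replicate 1, at 0.78 (adjusted p = 0.0982), and without male 44% fat replicate 3, at 0.86 (adjusted p = 0.148). For Loxl2, given above, the difference was -0.93 (SE 0.22, adjusted p = 0.00654), with -0.80 (adjusted p = 0.0555) without male 44% fat replicate 3. Without male 44% fat replicate 3 only 1 gene passed, Vcan at 1.35 (adjusted p = 0.0411). Without male 10% fat replicate 3, the replicate with the highest matrix levels on that diet, 16 passed, 15 of them higher in males. Male 44% fat replicate 1 and replicate 2, left out in turn, each gave 6. The same test passed for 0 genes in CAST/EiJ (0.0295% of all genes passed, the same 0.0295% being lower) and 0 in C57BL/6J (0% of all genes) by edgeR, DESeq2 and limma, with 0 and 4 genes at an unadjusted p under 0.05.

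**Figure D2:**
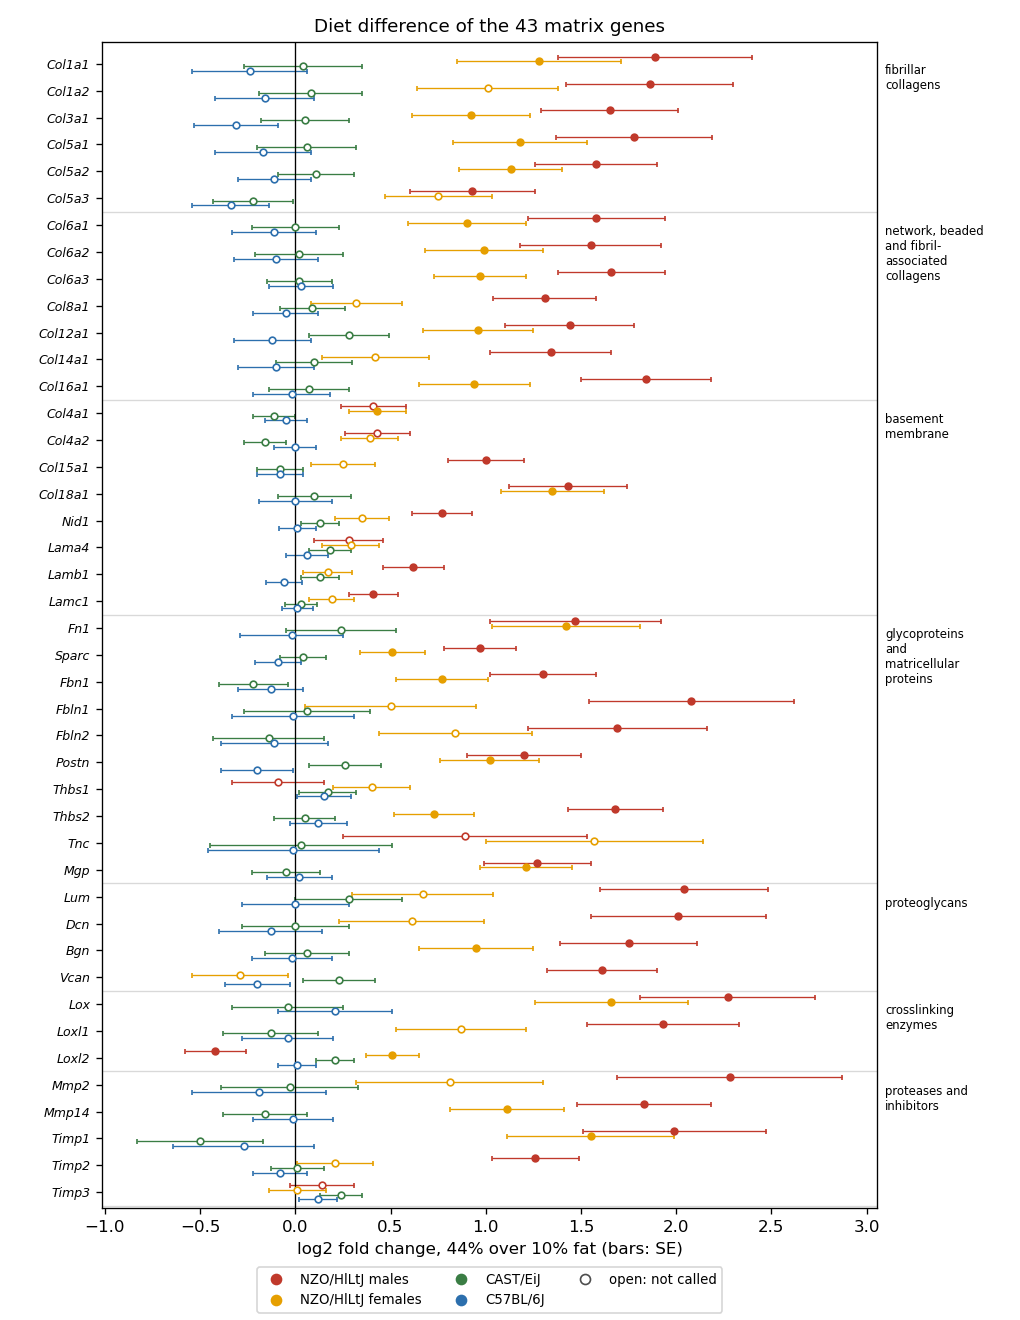
Log2 fold change of 44% over 10% fat for each of the 43 genes by role, with SE bars, in NZO/HlLtJ males and females and as the mean over the sexes in CAST/EiJ and C57BL/6J. Filled points passed an adjusted p under 0.05. The NZO/HlLtJ male points reach 2.28 at Mmp2 and the NZO/HlLtJ female points 1.66 at Lox, while the CAST/EiJ and C57BL/6J points lie between -0.50 and 0.28.

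In the other strains the diet changed no matrix gene detectably. In CAST/EiJ 0 of 43 passed in edgeR (0.0443% of all genes passed), 1 had an unadjusted p under 0.05, and DESeq2 and limma called 0. The median log2 fold change in CAST/EiJ was 0.05, with a range of -0.50 to 0.28. In C57BL/6J 0 passed in edgeR (0.0246% of all genes), 0 had an unadjusted p under 0.05, and DESeq2 and limma called 0, with a median of -0.05 and a range of -0.34 to 0.21. Within CAST/EiJ males, CAST/EiJ females, C57BL/6J males and C57BL/6J females the count was also 0 by edgeR, DESeq2 and limma, with 0, 1, 2 and 2 genes at an unadjusted p under 0.05 (0.00985%, 0.256%, 0.0443% and 0% of all genes passed, with 0.0345% lower in CAST/EiJ females). The 44% fat libraries all lay above the 10% fat libraries for 1 gene in CAST/EiJ males, against 1.31% of all genes, and for 0 in CAST/EiJ females (1.79%), C57BL/6J males (1.61%) and C57BL/6J females (1.09%). Col1a1, for example, had 78.7, 67.2, 85.05 and 117 CPM in CAST/EiJ males on 44% fat, against 81.4, 93.2 and 76.7 on 10% fat. It had 76.03, 17.5, 23.04 and 26.4 CPM in C57BL/6J males on 44% fat, against 34.8, 44.9, 26.7 and 22.97 on 10% fat. C57BL/6J male 44% fat replicate 1 stood apart from the other 3 libraries of its group, and the diets overlapped in both strains.

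The diet effect in NZO/HlLtJ was larger than that in C57BL/6J for 36 of the 43 genes and smaller for 0 (18.8% of all genes passed, 9.67% higher and 9.12% lower), with a median difference of 1.30 on the log2 scale. It was larger than that in CAST/EiJ for 34 and smaller for 0 (25.7% of all genes passed, 13.0% higher and 12.7% lower), with a median difference of 1.21. Both tests share the NZO/HlLtJ libraries. For Timp1 the difference was 2.04 (SE 0.49, adjusted p = 0.00383) from C57BL/6J and 2.27 (SE 0.47, adjusted p = 0.000601) from CAST/EiJ. For Lox it was 1.76 (SE 0.42, adjusted p = 0.00387) and 2.01 (SE 0.42, adjusted p = 0.000761), and for Col1a1 1.83 (SE 0.45, adjusted p = 0.00458) and 1.54 (SE 0.45, adjusted p = 0.0113). Between CAST/EiJ and C57BL/6J the diet effect differed for 0 genes in edgeR, DESeq2 and limma, with 0 at an unadjusted p under 0.05 (0.0197% of all genes passed). Without NZO/HlLtJ male 44% fat replicate 3 the counts were 29 against C57BL/6J and 27 against CAST/EiJ. Without the 5 libraries with transcripts of another strain, which take 3 of the 4 CAST/EiJ females on 44% fat, they were 24 and 10. The shares of all genes above are those of the fit with all libraries, and shares from the fits with libraries left out are not given here.

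The second comparison asks how the strains differed on the 10% fat control diet, as a mean over the sexes. In NZO/HlLtJ, 35 of the 43 genes were higher than in C57BL/6J and 1 was lower (43.8% of all genes passed, 22.8% higher and 21.0% lower), with a median log2 fold change of 0.89, against -0.010 for all genes. Against CAST/EiJ, 23 were higher in NZO/HlLtJ and 2 lower (54.8% of all genes passed, 27.6% higher and 27.2% lower), with a median of 0.46. CAST/EiJ was higher than C57BL/6J for 24 and lower for 4 (48.0% of all genes passed, 24.4% higher and 23.6% lower), with a median of 0.44. Each strain enters 2 of these comparisons, so they are not independent of each other. The sources used here do not say how the deposited counting treated strain variants, and a difference between strains in a count can depend on it. Without NZO/HlLtJ male 10% fat replicate 3, 25 genes were higher and 1 lower in NZO/HlLtJ than in C57BL/6J, and 17 higher and 4 lower than in CAST/EiJ. The shares of all genes in that fit are not given here.

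All 8 basement membrane genes were higher in NZO/HlLtJ than in C57BL/6J and in CAST/EiJ, with median log2 fold changes of 0.86 and 0.52. Nid1 (chr13:13437602-13512275) had 84.96, 102 and 145 CPM as the lowest, median and highest library of NZO/HlLtJ on 10% fat, against 36, 50.9 and 61.8 in CAST/EiJ and 44.6, 56.7 and 75.5 in C57BL/6J. No NZO/HlLtJ library overlapped the other strains, and the log2 fold change was 1.07 (SE 0.11, adjusted p = 5.7e-11) over CAST/EiJ and 0.87 (SE 0.10, adjusted p = 6.34e-09) over C57BL/6J. Col18a1 was higher in NZO/HlLtJ by 1.56 (SE 0.20, adjusted p = 3.94e-08) than in C57BL/6J and by 1.07 (SE 0.20, adjusted p = 3.3e-05) than in CAST/EiJ, and the laminin chain Lama4 by 1.07 (SE 0.11, adjusted p = 6.9e-10) and 0.67 (SE 0.12, adjusted p = 7.98e-06). The 6 fibrillar collagens were all higher in NZO/HlLtJ than in C57BL/6J, with a median of 0.93, while against CAST/EiJ 0 of 6 passed in edgeR, also at an unadjusted p under 0.05 (median 0.13), and 5 of 6 were higher in CAST/EiJ than in C57BL/6J (median 0.77). The calls of Col1a1, Col1a2, Col5a1 and Col5a3 against C57BL/6J were lost without NZO/HlLtJ male 10% fat replicate 3, for Col1a1 at 0.51 (adjusted p = 0.175), against 1.03 (SE 0.31, adjusted p = 0.00776) with all libraries.

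Of the single genes, Postn and Fn1 set NZO/HlLtJ apart from both other strains. Postn (chr3:54361109-54391037) had 19.3, 27.7 and 68.9 CPM as the lowest, median and highest library of NZO/HlLtJ on 10% fat, against 3.35, 6.84 and 8.605 in CAST/EiJ and 4.37, 5.94 and 10.5 in C57BL/6J. Its log2 fold change in NZO/HlLtJ was 2.30 (SE 0.20, adjusted p = 5.35e-12) over C57BL/6J and 2.36 (SE 0.21, adjusted p = 5.03e-12) over CAST/EiJ, and no NZO/HlLtJ library overlapped the others. Fn1 gave 2.21 (SE 0.29, adjusted p = 1.28e-07) and 2.23 (SE 0.31, adjusted p = 1.63e-07) in the same comparisons, with 22.1, 35.4 and 72.9 CPM in NZO/HlLtJ, 4.27, 7.82 and 13.5 in CAST/EiJ and 3.36, 7.16 and 20.5 in C57BL/6J. Between CAST/EiJ and C57BL/6J the difference was -0.06 (SE 0.19, adjusted p = 0.839) for Postn and -0.02 (SE 0.29, adjusted p = 0.967) for Fn1.

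C57BL/6J differed from both other strains for Col8a1, Thbs1 and Timp1, which were lower there. Col8a1, a network collagen of vessel walls, had 10.8, 12.7 and 21.02 CPM as the lowest, median and highest library of NZO/HlLtJ on 10% fat and 10.3, 13.9 and 20.3 in CAST/EiJ, against 2.57, 3.81 and 6.35 in C57BL/6J. The log2 fold change over C57BL/6J was 1.83 (SE 0.18, adjusted p = 8.36e-11) in NZO/HlLtJ and 1.96 (SE 0.18, adjusted p = 6.56e-12) in CAST/EiJ, and every library of both strains was above every C57BL/6J library. Thbs1, an activator of latent TGF-beta, gave 1.42 (SE 0.15, adjusted p = 8.79e-10) and 1.25 (SE 0.15, adjusted p = 6.38e-09), and Timp1 gave 1.43 (SE 0.35, adjusted p = 0.00103) and 1.27 (SE 0.35, adjusted p = 0.00275). The Timp1 libraries overlapped, at 0.0932 to 0.47 CPM in C57BL/6J, 0.359 to 3.19 in NZO/HlLtJ and 0.445 to 1.09 in CAST/EiJ. Without NZO/HlLtJ male 10% fat replicate 3 the NZO/HlLtJ value of Timp1 was 0.84 (adjusted p = 0.0395). Vcan ran the other way. It had 3.37, 4.63 and 6.99 CPM in NZO/HlLtJ on 10% fat and 2.39, 2.67 and 3.49 in CAST/EiJ, against 8.57, 11.3 and 18.5 in C57BL/6J, whose lowest library was above the highest of the other strains. Its log2 fold change over C57BL/6J was -1.29 (SE 0.19, adjusted p = 6.05e-07) in NZO/HlLtJ and -2.10 (SE 0.20, adjusted p = 9.1e-12) in CAST/EiJ.

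CAST/EiJ differed from both other strains for Loxl2, Tnc and Mgp, which were lower there, and for Fbln1 and Col12a1, which were higher. Mmp2, also higher there, passed in edgeR against C57BL/6J alone. Loxl2 had 42.9, 53.9 and 64.9 CPM as the lowest, median and highest library of NZO/HlLtJ on 10% fat, 15.8, 17.03 and 19.9 in CAST/EiJ and 40.97, 54.1 and 59.4 in C57BL/6J. The CAST/EiJ libraries did not overlap the others. Loxl2 was higher in NZO/HlLtJ than in CAST/EiJ by 1.63 (SE 0.11, adjusted p = 1.37e-15) and lower in CAST/EiJ than in C57BL/6J, at -1.55 (SE 0.11, adjusted p = 2.6e-15). Tnc had 1.57, 2.49 and 7.45 CPM in NZO/HlLtJ, 0.0845, 0.147 and 2.56 in CAST/EiJ and 0.509, 1.33 and 4.16 in C57BL/6J, with log2 fold changes of 2.77 (SE 0.50, adjusted p = 1.3e-05) in NZO/HlLtJ over CAST/EiJ and -1.72 (SE 0.49, adjusted p = 0.00382) in CAST/EiJ over C57BL/6J. Except for CAST/EiJ male 10% fat replicate 3, which had the highest Tnc of its strain, every CAST/EiJ library was below every library of the other strains, and without it the log2 fold change over C57BL/6J was -2.89. Mgp gave 1.66 (SE 0.19, adjusted p = 1.61e-09) and -0.71 (SE 0.18, adjusted p = 0.00115). Its CAST/EiJ libraries, at 6.92 to 15.4 CPM, overlapped those of C57BL/6J, at 9.87 to 24.2. Fbln1 had 2.56, 5.97 and 15.2 CPM in NZO/HlLtJ, 11.5, 16.6 and 22.6 in CAST/EiJ and 2.42, 5.79 and 9.82 in C57BL/6J, and was lower in NZO/HlLtJ than in CAST/EiJ (-1.30, SE 0.35, adjusted p = 0.00191) and higher in CAST/EiJ than in C57BL/6J (1.51, SE 0.33, adjusted p = 0.000281). Col12a1 gave -1.15 (SE 0.22, adjusted p = 3.66e-05) and 0.89 (SE 0.21, adjusted p = 0.000565) in these comparisons. Its libraries overlapped, at 3.25 to 14.1 CPM in CAST/EiJ, 2.52 to 6.83 in NZO/HlLtJ and 3.32 to 7.32 in C57BL/6J. Mmp2 was higher in CAST/EiJ than in C57BL/6J by 1.46 (SE 0.36, adjusted p = 0.0011), and gave -0.82 (SE 0.38, adjusted p = 0.062) in NZO/HlLtJ over CAST/EiJ, a difference that passed in limma and, at -0.84 (adjusted p = 0.0422), in DESeq2. The Mmp2 libraries overlapped, at 8.75 to 22.4 CPM in CAST/EiJ, 2.73 to 16.8 in NZO/HlLtJ and 1.97 to 13.7 in C57BL/6J.

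**Figure D3:**
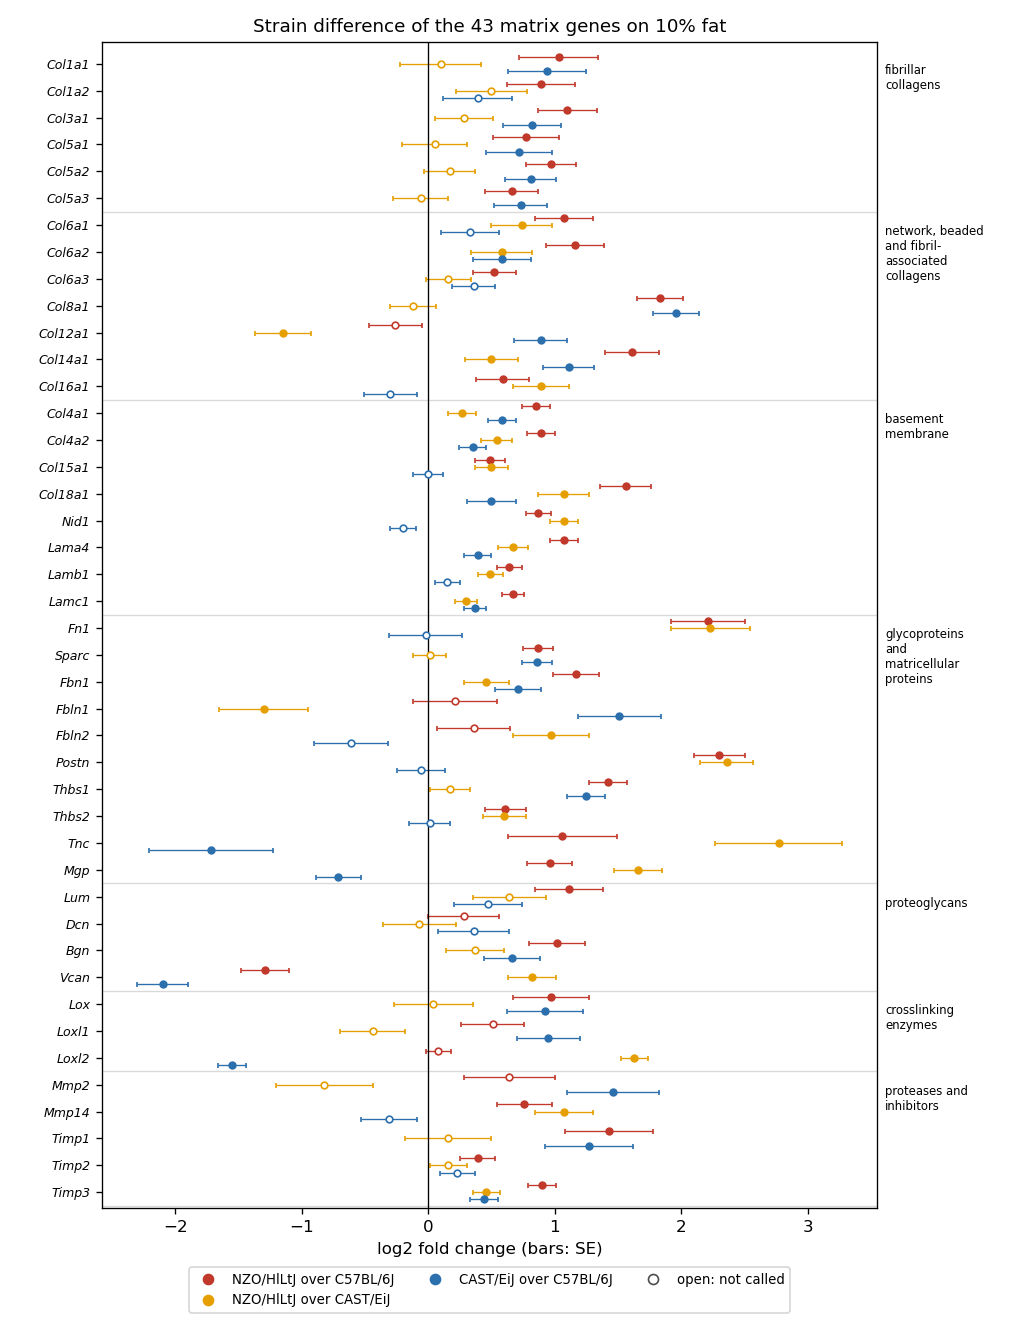
Log2 fold change between strains on 10% fat for each of the 43 genes by role, with SE bars, for NZO/HlLtJ over C57BL/6J, NZO/HlLtJ over CAST/EiJ and CAST/EiJ over C57BL/6J. Filled points passed an adjusted p under 0.05. All 8 basement membrane genes lie above 0 for both NZO/HlLtJ comparisons, and Vcan, Loxl2, Tnc and Mgp lie below 0 for CAST/EiJ over C57BL/6J.

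On 44% fat the distance of NZO/HlLtJ from the other strains was larger. Against C57BL/6J, 41 of the 43 genes were higher and 1 lower in NZO/HlLtJ (67.8% of all genes passed, 32.4% higher and 35.5% lower), with a median of 2.00, and against CAST/EiJ 39 were higher and 0 lower (70.9% of all genes passed, 36.2% higher and 34.7% lower), with a median of 1.46. CAST/EiJ was higher than C57BL/6J for 26 and lower for 4 (50.5% of all genes passed, 24.8% higher and 25.8% lower), with a median of 0.56. Fn1 gave 3.69 (SE 0.31, adjusted p = 2.06e-12) in NZO/HlLtJ over C57BL/6J, Postn 3.62 (SE 0.21, adjusted p = 6.51e-17) and Timp1 3.46 (SE 0.34, adjusted p = 4.96e-11). Over CAST/EiJ, Tnc gave 3.97 (SE 0.47, adjusted p = 2.44e-09), Fn1 3.44 (SE 0.30, adjusted p = 3.83e-12) and Postn 3.21 (SE 0.20, adjusted p = 3.31e-16). Postn had 33.5, 69.3 and 107 CPM as the lowest, median and highest NZO/HlLtJ library on 44% fat, against 5.16, 7.43 and 10.4 in CAST/EiJ and 3.7, 6.09 and 8.77 in C57BL/6J. Fn1 had 38.5, 109.8 and 144 CPM in NZO/HlLtJ, against 5.39, 9.41 and 12.9 in CAST/EiJ and 4.12, 6.48 and 17.4 in C57BL/6J. For both genes the lowest NZO/HlLtJ library was above every library of the other strains. Vcan was the gene that was lower in NZO/HlLtJ than in C57BL/6J (-0.42, SE 0.18, adjusted p = 0.0405), and that call was lost by RLE scaling, by DESeq2, with a factor for number series, and without any of 8 single libraries, 4 of NZO/HlLtJ and 4 of C57BL/6J. Without NZO/HlLtJ male 44% fat replicate 3 it was -0.69 (adjusted p = 0.000888). In CAST/EiJ, Tnc, Mgp, Vcan and Loxl2 were lower than in C57BL/6J on 44% fat as on 10% fat, at -1.68, -0.78, -1.67 and -1.35 on the log2 scale.

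The third comparison is that of males with females on 10% fat. In NZO/HlLtJ 5 of the 43 genes were higher in males and 0 lower (6.44% of all genes passed, 3.50% higher and 2.94% lower), with a median log2 fold change of 0.59. These were Timp1 (1.63, SE 0.47, adjusted p = 0.0297), Mmp14 (1.11, SE 0.32, adjusted p = 0.0313), Col18a1 (1.07, SE 0.28, adjusted p = 0.018), Col5a2 (1.02, SE 0.29, adjusted p = 0.0266) and Mgp (0.82, SE 0.26, adjusted p = 0.0462). On 10% fat the NZO/HlLtJ females are of number series 76 and 80 and the males of 76 and 89, so sex and series are partly confounded. The count was 0 with number series as a factor, 0 with library totals alone, 0 with NZO/HlLtJ libraries alone and 1 in limma. It was 0 without NZO/HlLtJ male 10% fat replicate 3 and 19 without male 10% fat replicate 1. It was 2, 2, 2 and 1 without female 10% fat replicates 1 to 4. In CAST/EiJ 0 genes passed in edgeR, DESeq2 or limma, with 4 at an unadjusted p under 0.05 (0.133% of all genes passed). In C57BL/6J 0 passed in edgeR and limma and 6 in DESeq2, all lower in males (0.0886% of all genes passed in edgeR). There 42 of the 43 genes were lower in males in value, with a median of -0.70, against 0.009 for all genes. Of the 43, 30 were at an unadjusted p under 0.05, and the share of all genes at that p is not given here. The lowest adjusted p was that of Fn1 (-1.79, SE 0.40, adjusted p = 0.0593), followed by Lox (-1.87, SE 0.43, adjusted p = 0.073). Fn1 had 4.23, 5.999, 3.36 and 3.64 CPM in C57BL/6J males on 10% fat, against 12.7, 8.32, 20.5 and 18.01 in females, without overlap. As a mean over the strains 0 genes passed in edgeR, DESeq2 or limma, with 4 at an unadjusted p under 0.05 (0.911% of all genes passed).

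Ratios of counts within a library compare genes without any scaling between libraries. For 6 pairs of chains or partners, 36 differences were tested by exact two-sided permutation within each sex, with Benjamini-Hochberg adjustment over the 36, and 9 passed, all of them between strains. No diet difference passed. In NZO/HlLtJ the ratio of Col1a1 to Col1a2 was 0.895 on 44% fat and 0.768 on 10% fat (geometric means, n = 7 each, exact permutation p = 0.0357, adjusted p = 0.126). The ratio of Col3a1 to Col1a1 was 1.96 on 44% fat and 2.53 on 10% fat (exact permutation p = 0.0386, adjusted p = 0.126), and that of Mmp2 to Timp2 was 0.258 on 44% fat and 0.151 on 10% fat (exact permutation p = 0.0714, adjusted p = 0.171). With 7 libraries a diet, the smallest p that this test can give is 0.00143. On 10% fat the ratio of Col1a1 to Col1a2 was 0.768 in NZO/HlLtJ, against 1.08 in CAST/EiJ (exact permutation p = 0.00143, adjusted p = 0.00643), and 1.08 in CAST/EiJ, against 0.729 in C57BL/6J (exact permutation p = 0.000408, adjusted p = 0.0049), each p being the smallest the test can give. Col4a1 over Col4a2 was 1.75 in NZO/HlLtJ and 2.09 in CAST/EiJ, and 2.09 in CAST/EiJ and 1.80 in C57BL/6J, with the same exact permutation values as Col1a1 over Col1a2. Between NZO/HlLtJ and C57BL/6J the log2 difference of that ratio was -0.04 (exact permutation p = 0.00857, adjusted p = 0.0343), a call lost without any of 12 single libraries. Col6a1 over Col6a2 was 0.943 in NZO/HlLtJ, against 0.837 in CAST/EiJ, and 0.837 in CAST/EiJ, against 0.992 in C57BL/6J, again at the smallest p. Mmp2 over Timp2 was 0.151 in NZO/HlLtJ, against 0.352 in CAST/EiJ (exact permutation p = 0.00143, adjusted p = 0.00643), and 0.352 in CAST/EiJ, against 0.147 in C57BL/6J (exact permutation p = 0.000816, adjusted p = 0.00643). Ratios between strains can also depend on how reads with strain variants were counted, which was not tested.

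**Figure D4:**
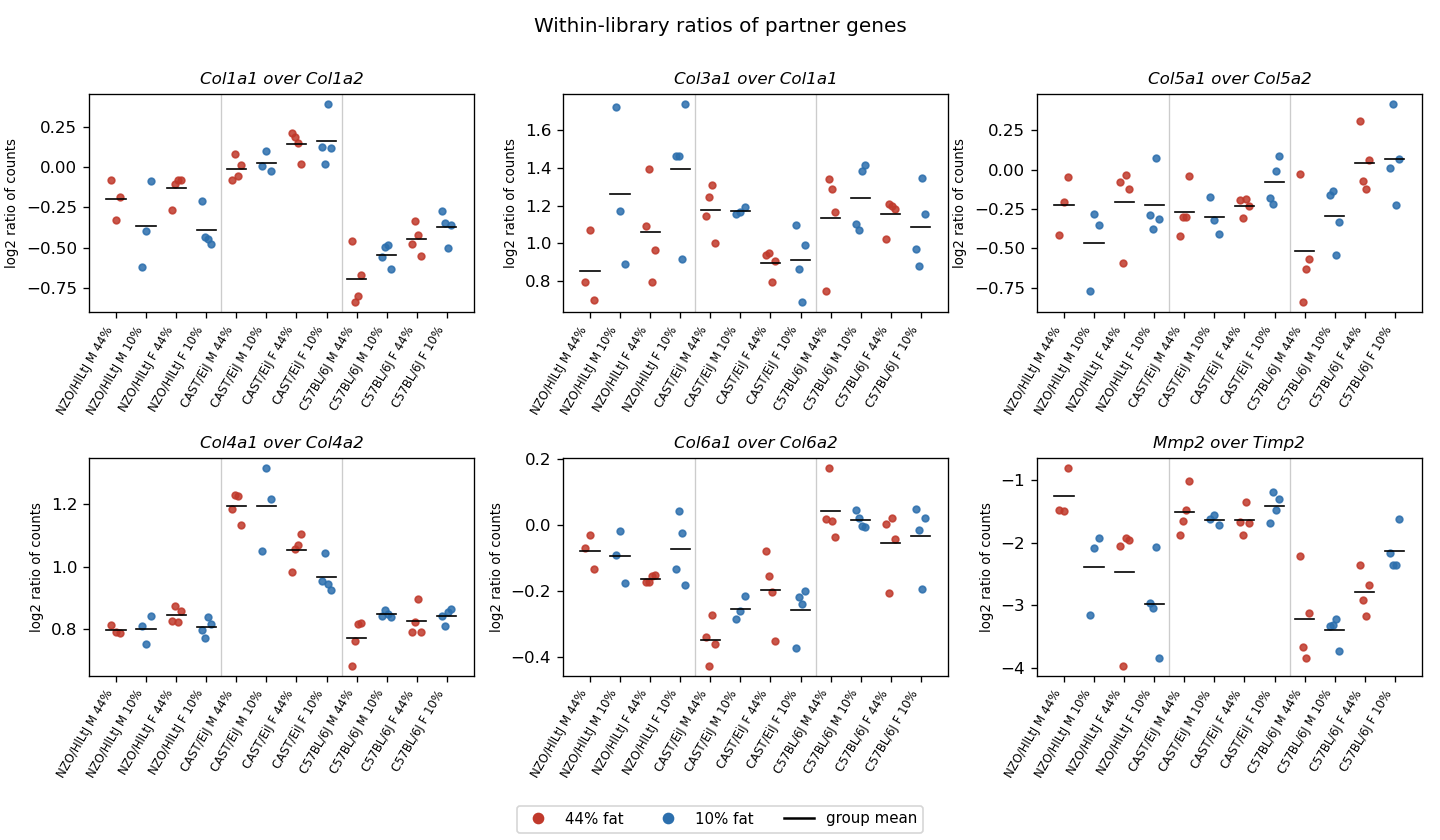
Log2 ratio of the counts of 6 pairs of genes within each library (points) and the group means (lines), by strain, sex and diet. Col1a1 over Col1a2 and Col4a1 over Col4a2 are highest in CAST/EiJ, where the Col4a1 to Col4a2 ratio on 10% fat was 2.09, against 1.80 in C57BL/6J.

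Other lists of matrix production and sensing are read against the 35.8% of all genes that passed for diet in NZO/HlLtJ, 18.5% higher and 17.3% lower. Of 22 genes of collagen biosynthesis and processing, 12 rose and 1 fell, with a median log2 fold change of 0.29. They were led by Adamts14, a procollagen protease (1.68, SE 0.34, adjusted p = 0.000196), Pcolce, an enhancer of procollagen C-propeptide removal (1.43, SE 0.22, adjusted p = 6.9e-06), and Adamts2, a procollagen N-protease (1.28, SE 0.29, adjusted p = 0.00064), and the C-protease Bmp1 fell (-0.21, SE 0.08, adjusted p = 0.0349). Of 20 genes of the TGF-beta pathway, a main inducer of matrix genes, 10 rose and 1 fell (median 0.46), with Tgfbi (1.83, SE 0.29, adjusted p = 8.61e-06), the ligand Tgfb3 (1.25, SE 0.23, adjusted p = 6.74e-05) and the latent binding protein Ltbp1 (1.09, SE 0.14, adjusted p = 3.7e-07) in front, and the signal transducer Smad2 lower (-0.17, SE 0.06, adjusted p = 0.0202). Of 21 matrix receptors, 12 rose and 1 fell (median 0.36). The integrins Itga11 (1.58, SE 0.30, adjusted p = 8.49e-05), Itgb4 (1.29, SE 0.32, adjusted p = 0.00195) and Itga2 (1.26, SE 0.22, adjusted p = 2.93e-05) had the largest values, and the collagen receptor Ddr1 fell (-0.37, SE 0.08, adjusted p = 0.00044).

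Of 26 tested collagen genes outside the module 10 rose and 2 fell, with a median log2 fold change of 0.49. Col9a3 gave 2.10 (SE 0.25, adjusted p = 9.33e-08), the hemidesmosomal Col17a1 1.89 (SE 0.36, adjusted p = 3.33e-05) and Col10a1 1.56 (SE 0.35, adjusted p = 0.000641), while Col9a2 (-0.56, SE 0.14, adjusted p = 0.00155) and Col6a6 (-0.30, SE 0.12, adjusted p = 0.0478) fell. Of 11 other basement membrane genes 7 rose and 0 fell (median 0.68), led by the laminin chains Lamb3 (1.92, SE 0.51, adjusted p = 0.00342), Lama1 (1.28, SE 0.31, adjusted p = 0.00115) and Lama2 (0.89, SE 0.17, adjusted p = 9.51e-05). Of 22 other proteases and inhibitors 18 rose and 1 fell (median 1.14). The metalloproteases Mmp25 (2.34, SE 0.46, adjusted p = 9.51e-05), Mmp7 (2.29, SE 0.69, adjusted p = 0.00896) and Mmp3 (2.26, SE 0.47, adjusted p = 0.000248) were in front, and Mmp24 fell (-0.33, SE 0.10, adjusted p = 0.00747). In CAST/EiJ and C57BL/6J, 0 genes of any of these 6 lists passed for diet in edgeR, with at most 4 genes of a list at an unadjusted p under 0.05 in CAST/EiJ and at most 1 in C57BL/6J.

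Marker lists of other cell types varied in how they changed on 44% fat in NZO/HlLtJ. Of all genes, 18.5% rose and 17.3% fell in the mean over the sexes, or 14.9% and 13.5% without male 44% fat replicate 3. In males 17.0% rose and 15.1% fell, or 8.97% and 6.74% without that replicate. In females 9.37% rose and 7.83% fell. Of 13 fibroblast and stellate cell markers, 11 rose on 44% fat and 0 fell, with a median log2 fold change of 1.00. Their summed level was 1229.9, 1211 and 1437 CPM in males on 44% fat, against 700.0, 772 and 986 on 10% fat, and 680.3, 902, 1006 and 960.5 CPM in females on 44% fat, against 669.5, 666, 627 and 579.7 on 10% fat. Groups of males and of females were each separate by diet. The receptor Pdgfra, a marker of fibroblasts, gave 1.63 (SE 0.38, adjusted p = 0.000955) and Pdgfrb 0.74 (SE 0.12, adjusted p = 6.49e-06). In males 11 of the 13 markers rose, or 6 without male 44% fat replicate 3, and in females 2. Of 10 mural cell markers 6 rose (median 0.47), and of 12 endothelial markers 7 rose (median 0.30). In males 7 endothelial markers rose, or 1 without male 44% fat replicate 3, which is near the 8.97% of all genes. In females 0 endothelial markers rose. The endothelial sum was 1251, 1151 and 1487 CPM in males on 44% fat, against 1192, 1082 and 1154 on 10% fat, with overlap. The mural sum was 1166, 999 and 1179 CPM in males on 44% fat, against 747, 749 and 1029 on 10% fat, also with overlap. Rgs5 is in both the fibroblast and the mural list.

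Of 12 macrophage markers 11 rose in NZO/HlLtJ on 44% fat (median 1.89), and their sum was 529, 605 and 929 CPM in males on 44% fat, against 107, 168 and 303 on 10% fat, and 246, 177, 217 and 259.7 CPM in females on 44% fat, against 107, 101, 112 and 109 on 10% fat. The groups were separate in both sexes. Of 10 duct markers 6 rose (median 1.46), and of 14 acinar markers 0 passed in edgeR, also at an unadjusted p under 0.05, with a median of 1.05. The acinar sum was 62647, 112690.0 and 140280.0 CPM in males on 44% fat, against 36225, 33825 and 47007 on 10% fat. With an acinar score as a covariate, 40 of the 43 matrix genes rose in NZO/HlLtJ. Of 10 Schwann cell markers 3 rose and 1 fell (median 0.46). Without male 44% fat replicate 3 it was 1 and 1, near the 14.9% and 13.5% of all genes. Of 6 alpha cell markers 1 rose and 1 fell (median 0.06), near the 18.5% and 17.3% of all genes. Of 8 beta cell markers 0 rose and 5 fell (median -0.60). In males 0 beta cell markers rose and 7 fell (0 and 5 without male 44% fat replicate 3), against 17.0% and 15.1% of all genes. In females 2 rose and 0 fell, against 9.37% and 7.83%. Insulin transcripts made up 8.26%, 8.19% and 3.92% of the counts in males on 44% fat, against 11.8%, 13.3% and 14.2% on 10% fat. In females they did not fall, at 10.9%, 12.7%, 12.3% and 13.8% on 44% fat, against 10.8%, 8.43%, 10.6% and 12.5% on 10% fat, with overlap. No marker of these lists was at a median of 0 CPM in NZO/HlLtJ. The part of these cell types in the change of the matrix genes was not tested. The acinar covariate is a mean score of acinar genes and does not measure such a part. On 10% fat, 6 of 13 fibroblast and stellate markers were higher and 1 lower in NZO/HlLtJ than in C57BL/6J, and 8 of 10 mural and 11 of 12 endothelial markers were higher (43.8% of all genes passed, 22.8% higher and 21.0% lower). Compared with CAST/EiJ, 4 of 13 fibroblast and stellate markers were higher and 3 lower in NZO/HlLtJ, which is near the 54.8% of all genes that passed (27.6% higher and 27.2% lower). There 6 mural and 10 endothelial markers were higher. Their part in the strain differences was not tested.

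**Figure D5:**
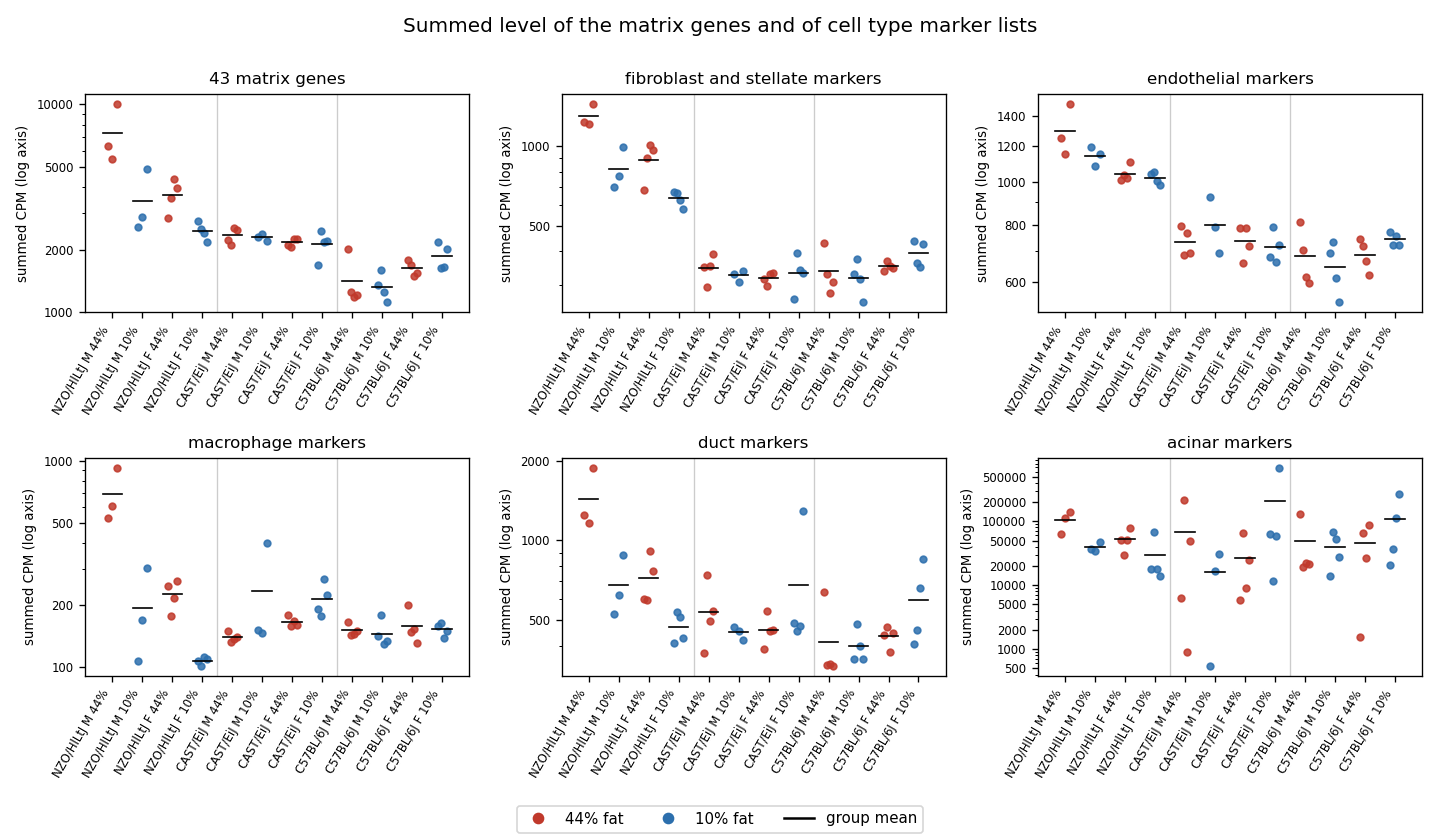
Summed CPM on a log axis of the 43 matrix genes and of 5 marker lists in every library (points), with group means (lines), by strain, sex and diet. The matrix sum and the fibroblast and stellate sum are highest in NZO/HlLtJ males on 44% fat, where the fibroblast and stellate sum was 1229.9, 1211 and 1437 CPM.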

How the data were processed

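The authors deposited estimated counts per gene, of which 23.6% are not whole, for islet libraries prepared with a KAPA mRNA HyperPrep kit, per the labels. They also deposited log2 values from a variance-stabilising transformation, which served as input for limma. GRCm38 and DESeq2 are named in the submitters' processing notes. The aligner, the counter and its use of strand are not stated in the labels or notes.

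Counts were rounded to whole numbers and tested with edgeR 4.0.16 (R 4.3.3), using TMM factors, filterByExpr and quasi-likelihood tests in 1 model over all 12 groups. The 25 comparisons were each adjusted by Benjamini-Hochberg over the 20306 genes tested, at a threshold of 0.05. Gene levels are CPM with TMM factors, and levels per kb divide them by exon length. Alternatives were RLE factors, library totals alone, no filter, DESeq2 1.42.0, limma 3.58.1, an acinar covariate, number series as a factor, libraries of 1 strain alone, and each library left out. Where a count from an alternative has no share of all genes of its own, the shares in its paragraph are those of the main fit. Partner ratios were tested with Python 3.11.15, numpy 2.4.6 and pandas 2.3.3, by exact permutation. Figures were drawn with matplotlib 3.10.9. On counts simulated for the NZO/HlLtJ diet comparison over 19933 genes, edgeR recovered 65% of the genes with a log2 change of 1 and 48.5% of those with a log2 change of 0.585. For the comparison in NZO/HlLtJ males, over 19930 genes, it recovered 47.9% and 24.5%. The first simulation changed 100 and 97 genes by these amounts, and the second 96 and 98. In the data 35.8% and 32.1% of all genes passed, so these recoveries do not give the sensitivity there.

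The 43 genes and the other lists were chosen with earlier results of these data known. Every gene is accounted for, and full statistics were given to at most 3 passing genes per role and comparison with the largest change, plus those that went against most of their role. At most 3 passing genes were named in the other lists, with any that fell. Genes named beyond this were chosen after their values were seen. Sex is taken from the -F or -M code of the title. Replicate numbers follow accession order and do not pair libraries. Whether every library comes from its own mouse is not stated in the labels, and p-values therefore measure only the spread among libraries, part of which may be technical. Wilson intervals at 95% for shares of counts in a library were at most ± 0.0021 percentage points wide for the 43 genes and ± 0.0079 for insulin, and cover counting error only.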

Additional observations from a re-analysis of the deposited data

Results flagged for a closer look

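C57BL/6J male 44% fat replicate 1 lay far above the other 3 libraries of its group in matrix genes. Acinar genes also took 11.5% of its counts, against 2.14%, 2.65% and 2.37% in the others. Its duct markers summed to 640.73 CPM, against 337.4, 342.18 and 335.58 CPM. Any link between these was not tested. The summed level of the 43 genes was 2014.3 CPM in it, against 1176.5 to 1246.8 CPM in the others. Its fibrillar collagens summed to 347.19 CPM (others 107.2 to 146.84), its network, beaded and fibril-associated collagens to 151.88 CPM (others 61.948 to 74.01) and its proteoglycans to 157.32 CPM (others 55.206 to 70.859). In CAST/EiJ males on 44% fat, replicate 3 had a basement membrane sum of 1006.2 CPM, against 799.01 to 832.97 CPM in the others. C57BL/6J female 10% fat replicate 1 had a sum of proteases and inhibitors of 227.41 CPM, against 198.01 to 202.62 CPM. These are 6 of 72 sums tested by Dixon's criterion for a library that stands apart, and chance marks about 1 in 20 groups. The sums are not independent, as that of the 43 genes holds the role sums. Groups of 3 libraries, NZO/HlLtJ males on either diet and CAST/EiJ males on 10% fat, were not tested. Over single genes, 25 of 387 gene and group pairs (6.46%) stood out, 11 of them in C57BL/6J male 44% fat replicate 1.

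Differences between groups in the diet effect passed their own test for 36 of the 43 genes between NZO/HlLtJ and C57BL/6J (18.8% of all genes passed). Between NZO/HlLtJ and CAST/EiJ they passed for 34 (25.7% of all genes). All were in the direction of a higher value in NZO/HlLtJ, as were 9.67% and 13.0% of all genes. Between males and females of NZO/HlLtJ, the diet effect differed by 1.90 on the log2 scale for Vcan, by 1.05 for Timp2 and by -0.93 for Loxl2, with adjusted p values in edgeR of 0.00248, 0.0223 and 0.00654. This count of 3 of the 43 genes is below the 10.0% of all genes that passed that test.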

How the results depend on the processing

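No paired analysis was possible because replicate numbers follow accession order and the labels tie no library of one diet to one of another. The diet counts in C57BL/6J and CAST/EiJ were 0 under every alternative run. Over genes and ratios, 15889 of 16595 alternative values stayed on their side of the threshold, 553 lost a call and 153 gained one. Among values with a call in the main or the alternative fit, 0 reversed direction. Direction was not compared for values without a call in both. The count of 22 in NZO/HlLtJ females was 7 with library totals alone, 12 with number series as a factor, 6 with NZO/HlLtJ libraries alone, and 11 to 26 with single libraries left out. The count of 37 in NZO/HlLtJ males was 22 without the 5 libraries with transcripts of another strain. For NZO/HlLtJ against CAST/EiJ in diet effect, 34 became 17 with library totals alone and 10 without the 5 libraries. The count of 3 for diet by sex in NZO/HlLtJ was 5 with RLE factors, 1 with library totals, 6 in DESeq2, 9 in limma, 0 with NZO/HlLtJ libraries alone, 0 without the 5 libraries, and 1 to 16 with single libraries left out. The count of 5 for sex in NZO/HlLtJ was 0 with library totals, 1 in limma, 0 with number series, 0 with NZO/HlLtJ libraries alone, and 0 to 19 with single libraries left out. Library totals alone moved the median over all tested genes (log2) to -0.151 for diet in NZO/HlLtJ, -0.217 in its females and -0.233 for its diet effect over that of CAST/EiJ. The cause of these changes was not tested, other than that fewer libraries enter some fits. Of the 39 diet calls in NZO/HlLtJ, those of Col4a1, Col4a2, Lamb1, Lamc1, Tnc and Vcan were lost under at least 1 alternative. On the variance-stabilised scale limma gave smaller values for genes with low levels, for example 1.65 for Tnc in NZO/HlLtJ over CAST/EiJ on 10% fat. The older form of edgeR's quasi-likelihood fit was added after seeing the data and moved none of these counts by over 1.5 times. Depth limits Timp1 and Tnc, which reached a count of 4 in their lowest libraries.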

Other observations

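Ratios of Col1a1 and of the proteoglycan gene Dcn to the basement membrane collagen Col4a1 within a library were chosen after the values were seen and not tested. In NZO/HlLtJ males both ratios were higher on 44% fat, while in females the Dcn ratio was nearly the same on both diets. The ratio of Col1a1 to Col4a1 counts was 0.626 in NZO/HlLtJ males on 44% fat (0.507 to 0.823), against 0.178 on 10% fat (0.0737 to 0.362), without overlap. In NZO/HlLtJ females it was 0.26 on 44% fat (0.158 to 0.379), against 0.148 on 10% fat (0.107 to 0.201), with overlap. The ratio of Dcn to Col4a1 was 0.263 in NZO/HlLtJ males on 44% fat, against 0.083 on 10% fat, and 0.0655 in NZO/HlLtJ females on 44% fat, against 0.0638 on 10% fat.

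NZO/HlLtJ female 44% fat replicate 2 departed from the other females on its diet in which matrix genes were high. It had the highest Fn1 of the 4, at 109.8 CPM, and the lowest Dcn, Fbln1 and Mmp2, at 14.5, 2.91 and 2.48 CPM. The other 3 females on 44% fat had 37.8 to 63 CPM of Dcn, 6.53 to 10.7 of Fbln1 and 10.3 to 15.9 of Mmp2. This was noticed after the values were seen and has no test.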
